A study of Mus musculus with 30 samples.

Results

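The genes described here are 10 regulators of the G1 phase and of entry into S phase, taken by symbol from the 22477 genes of the deposited expression table. They are the D-type cyclins Ccnd1, Ccnd2 and Ccnd3, the E-type cyclins Ccne1 and Ccne2, the kinases Cdk4 and Cdk6, the inhibitors Cdkn1b and Cdkn2a, and the pocket protein gene Rb1. All 10 were found and all 10 reached 1 FPKM (fragments per kilobase of transcript, scaled to the mapped fragments of the library) in at least 1 condition.

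RNA-seq of polyadenylated RNA was performed on mouse secondary iPSCs, which are induced pluripotent stem cells derived through cells that already carried transgenes for OSKM (the factors Oct4, Sox2, Klf4 and cMyc) under control of doxycycline (dox). All conditions share these transgenes, a GFP reporter that replaces 1 allele of Nanog and a constitutive nuclear RFP. The cells were kept on CF1 mouse embryonic fibroblasts in serum/LIF, moved to 2i/LIF, and then differentiated by 2i/LIF withdrawal in N2B27 medium for 0, 24, 36, 48, 60, 72 or 96 h (7 timepoints). After 0, 24, 48 or 96 h of withdrawal, cells were also re-seeded into serum/LIF and collected 48 h later, either without dox (–dox) or with 2 µg/ml of it to induce OSKM (+dox), which adds 8 conditions and makes 15 conditions and 30 samples in all. The table holds 1 value per gene and condition, in which the authors combined 2 replicates. There is therefore no spread, no test and no n behind any difference given here, and whether neighbouring levels differ beyond their error cannot be judged. In the colony-forming assay of the study, cells differentiated on gelatin and were put back on CF1 fibroblasts, but its RNA-seq section names no surface.

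In G1, mitogen signals act on D-type cyclins, which pair with Cdk4 or Cdk6 and phosphorylate the Rb protein. Phosphorylated Rb releases E2F factors, whose targets include the E-type cyclins, and cyclin E with Cdk2 carries the cell into S phase. The inhibitor p27, encoded by Cdkn1b, binds cyclin-kinase complexes, and Cdkn2a encodes both p16Ink4a, which binds Cdk4 and Cdk6, and p19Arf, which acts on p53 through Mdm2. Mouse pluripotent cells in culture are known for a short G1 phase and for cyclin E with Cdk2 that stays active through much of the cycle.

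The labelled cell state was checked first on 14 pluripotent cell markers, with differences of 2-fold or more counted. At 96 h 11 were lower and 2, Lin28a and Utf1, were higher than at 0 h (16.4% and 16.8% of all genes tested). Nanog was at 227 FPKM before withdrawal and 14.5 FPKM after 96 h of it, and Esrrb, another factor of the naive state, was at 149.9 and 3.07 FPKM. The sum over all genes ran from 603278 to 832607 FPKM among conditions, and between 2756 and 5090 genes were listed at 0. Fibroblast markers were highest in the 0 h cells, where 18 of 20 reached 1 FPKM and the list summed to 1005 FPKM. The sum was between 55.8 and 142.8 FPKM at the later timepoints, 22.3 FPKM in the cells re-seeded from 0 h –dox and 440 FPKM in those from 96 h –dox, while Tcf21 was at 0 in 13 of the 15 conditions. Acta2 alone gave 97.9 of the 142.8 FPKM, which was the sum at 96 h, and 255 of the 440 FPKM. In RNA from whole cultures, fewer cells of a type and less RNA per cell cannot be told apart.

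Over the time course, 8 of the 10 genes changed, by which is meant a ratio of 2 or more between any timepoints, with the higher value at 1 FPKM or more. The same rule took in 60.7% of the 14091 genes that reached 1 FPKM at some timepoint. The median ratio of the highest to the lowest timepoint was 3.15 for the 10 genes and 2.36 for all genes tested. The exceptions were the kinases Cdk4 and Cdk6. Between 0 and 96 h alone, only Rb1 was higher by the rule (16.8% of all genes tested were), and Ccnd2 and Cdkn2a were lower (16.4% of all genes tested were). The Ccnd2 call was lost with values scaled to a common sum (TPM; log2 ratio of -0.95 in place of -1.22) and with 1 FPKM added (-0.97), and as TPM Cdk6 met the rule over the time course. The median log2 ratio of 96 h to 0 h was 0.00 for the 10 genes and -0.02 for all genes.

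**Figure D1:**
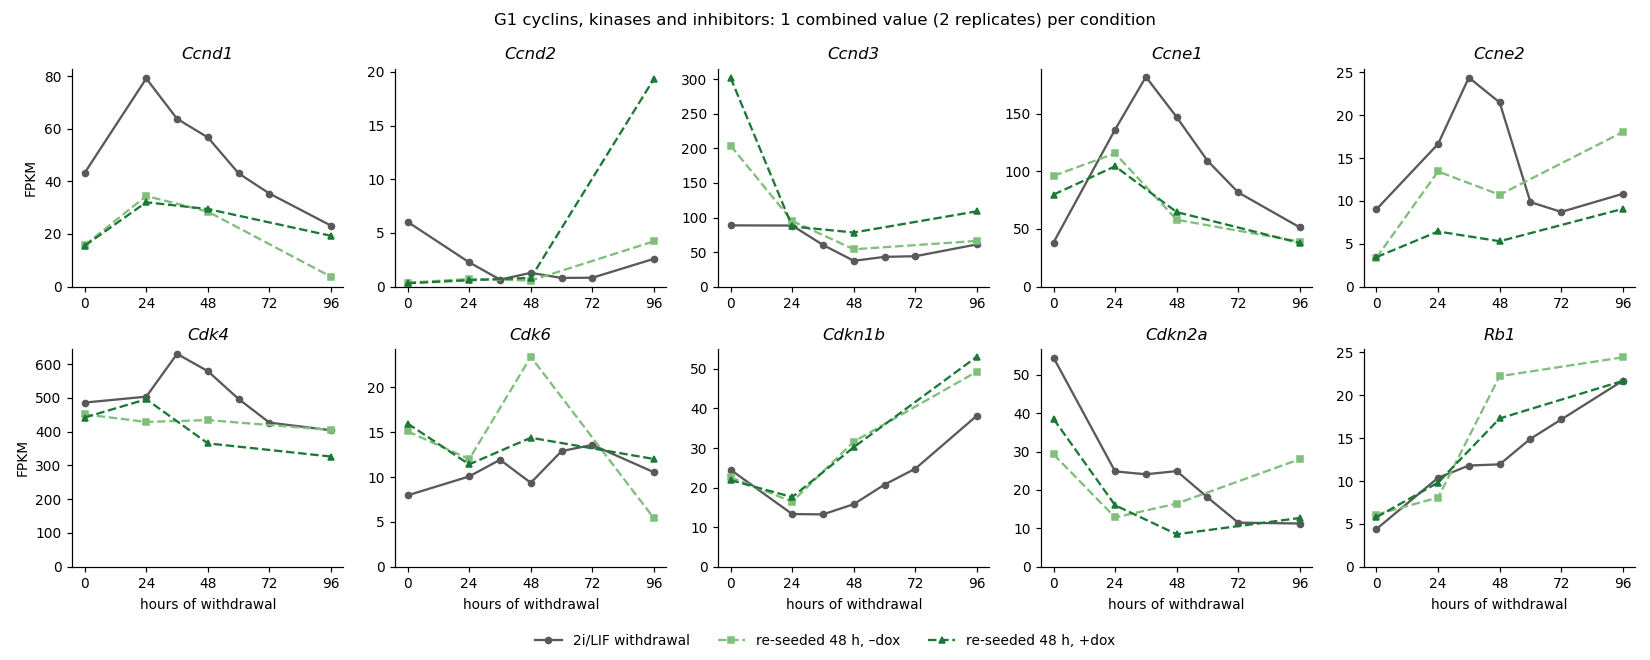
FPKM of the 10 genes against hours of 2i/LIF withdrawal, each panel with its own axis from 0; grey circles are the timepoints, light green squares the cells re-seeded for 48 h without dox and dark green triangles those with dox, 1 combined value each and no error bars. Ccne1 and Ccne2 peaked at 36 h, Rb1 was highest at 96 h, and Ccnd2 stood at 19.4 FPKM in the cells re-seeded from 96 h with dox.

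Ccnd1 (chr7:144929931-144939925 of mm10, minus strand) was the D-type cyclin with the clearest early peak. Its levels at 0, 24, 36, 48, 60, 72 and 96 h were 43.2, 79.1, 63.8, 56.7, 43.0, 35.4 and 23.2 FPKM. The first step, from 0 to 24 h, was 1.83-fold and did not reach the 2-fold rule, whereas the fall from 24 h to 96 h was 3.42-fold. Re-seeded cells were lower than the timepoint from which they came, at 15.7, 34.4, 28.5 and 3.71 FPKM –dox for cells from 0, 24, 48 and 96 h. The value of 3.71 FPKM was the lowest of the 15 conditions. With dox the same cells were at 15.5, 32.0, 29.5 and 19.3 FPKM, so that from 0, 24 and 48 h the pair lay within 1.08-fold. Ccnd1 shares 1100 of its 4709 exonic bases with LTO1 on the opposite strand, for which no value was read here.

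Ccnd2 (chr6:127125162-127152193, minus strand), which serves the same kinases, was the scarcest of the 10 genes in 12 of the 15 conditions. Over the timepoints it was at 6.03, 2.25, 0.648, 1.28, 0.802, 0.822 and 2.59 FPKM, so that it fell to 36 h and rose again between 72 and 96 h. In re-seeded cells it was under 1 FPKM from 0, 24 and 48 h with and without dox, at between 0.305 and 0.809 FPKM. From 96 h it was at 4.22 FPKM –dox and 19.4 FPKM +dox, the highest value of the 15 conditions and 63.4 times the lowest. The fall from 0 to 24 h went with a fall of the fibroblast marker sum from 1005 to 138 FPKM, and its part in the result was not tested. Where Ccnd2 was at 19.4 FPKM the marker sum was 245 FPKM, of which Acta2 alone gave 193. In the –dox cells with the lower Ccnd2 the sum was 440 FPKM, of which Acta2 alone gave 255. Ccnd2 shares 372 bases of exon with Gm43126 and 368 with 9330179D12Rik on the opposite strand, the latter at 0.108 FPKM at most.

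Ccnd3 (chr17:47505051-47599691, plus strand) had its lowest timepoint at 48 h. The 7 timepoints gave 88.6, 88.4, 60.3, 37.3, 43.0, 43.9 and 61.1 FPKM, in order of time. The fall from 0 to 48 h was 2.38-fold. After re-seeding from 0 h it stood at 204 FPKM –dox and 302 FPKM +dox, above every other condition. Cells re-seeded from 24, 48 and 96 h held 95.0, 54.0 and 66.1 FPKM –dox and 87.1, 78.3 and 109 FPKM +dox. Ccnd3 shares 361 bases of exon with Bysl on the opposite strand, which was at between 31.3 and 80.9 FPKM.

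Because FPKM are per length, the D-type cyclins can be added. Their sum at 0, 24, 72 and 96 h was 138, 169.7, 80.1 and 86.8 FPKM, of which the second is the highest and the third the lowest of the time course. Ccnd1 made up 31.3% of it at 0 h, 59.5% at 48 h and 26.7% at 96 h, and Ccnd3 made up 64.3%, 39.1% and 70.4%. Ccnd1 was thus the larger share at 36 and 48 h, the values at 60 h were nearly equal (43.03 and 42.99 FPKM), and Ccnd3 led at the other timepoints and in all 8 re-seeded conditions. In cells re-seeded from 0 h the sum was 220.3 FPKM –dox and 318 FPKM +dox, with 92.7% and 95.0% of it from Ccnd3.

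**Figure D2:**
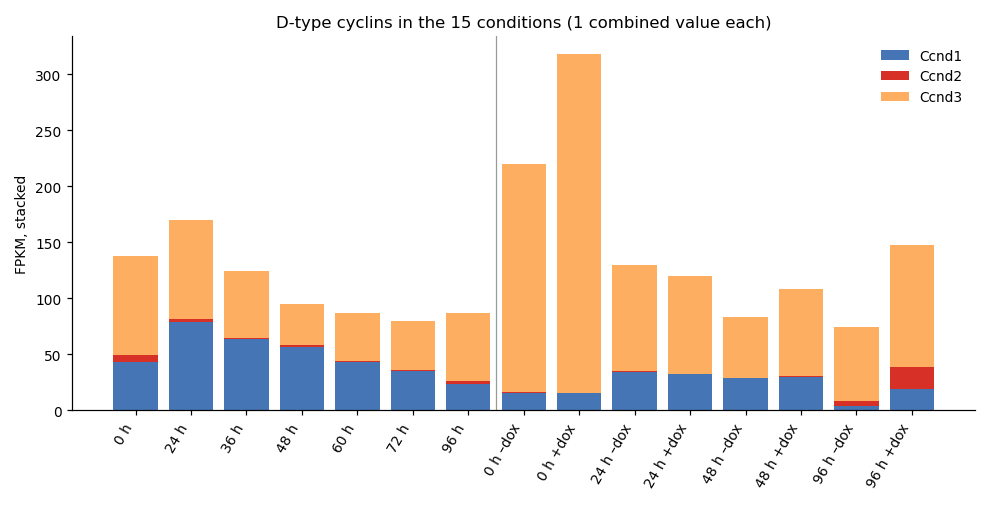
Stacked FPKM of Ccnd1 (blue), Ccnd2 (red) and Ccnd3 (orange) in the 15 conditions, timepoints left of the line and re-seeded conditions right of it, 1 combined value each. The tallest bar is the 0 h +dox condition at 318 FPKM, and Ccnd2 is visible as a share of 13.1% in the 96 h +dox condition.

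Ccne1 (chr7:38097984-38107534, minus strand), a partner of Cdk2, had the largest rise of the 10 genes in the first day. It rose from 38.2 FPKM to 136 FPKM by 24 h and to 182 FPKM by 36 h, and was then at 147, 109, 81.7 and 51.4 FPKM after 48, 60, 72 and 96 h. The 36 h value was 4.77 times the 0 h value and 3.55 times the 96 h value, so that the level at 96 h was 1.34 times that at 0 h. At 24 to 72 h it was second only to Cdk4 among the 10 genes. Re-seeded cells from 0, 24, 48 and 96 h were at 96.2, 115.6, 58.0 and 39.0 FPKM –dox, which for cells from 0 h was 2.52-fold above their timepoint and for cells from 48 h 2.54-fold below it. With dox it was at 79.8, 104, 64.7 and 37.8 FPKM.

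Ccne2 (chr4:11191351-11204779, plus strand), the second E-type cyclin, also peaked at 36 h, at a lower level, but parted from Ccne1 after 48 h. In order of time its levels were 9.02, 16.6, 24.4, 21.5, 9.85, 8.71 and 10.8 FPKM. The rise to 36 h was 2.70-fold, and the fall from 48 to 60 h was 2.18-fold within 12 h. At 60 h Ccne2 was thus near its 0 h level, where Ccne1 was still at 109 FPKM beside 38.2 FPKM at 0 h. Over the 15 conditions the log2(FPKM + 1) values of the E-type cyclins had a Pearson r of 0.27. The ratio of Ccne1 to Ccne2 ran from 4.24 at 0 h to 11.1 at 60 h, and was 28.5 in cells re-seeded from 0 h –dox, where Ccne2 had its lowest value of 3.37 FPKM. Ccne2 shares 609 bases of exon with Ints8 on the opposite strand, which was at between 25.7 and 63.9 FPKM, and whether reads were counted by strand is not stated.

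Cdk4 (chr10:127063534-127067920, plus strand), the catalytic partner of the D-type cyclins, was the most abundant of the 10 genes in all 15 conditions. The timepoints gave 486, 504, 630.2, 579, 497, 427 and 404 FPKM, a range of 1.56-fold over the time course and of 1.93-fold over all conditions. Re-seeded cells were at 451, 429, 434 and 405 FPKM –dox and 442, 496, 365 and 326 FPKM +dox, the last being the lowest value of all. Cdk4 shares 641 bases of exon with Tspan31 on the opposite strand, at between 41.3 and 70.6 FPKM. The 96 h to 0 h log2 ratio of -0.27 became 0.00 with values scaled to a common sum, so no direction is given for it.

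Cdk6 (chr5:3341485-3531008, plus strand), the other cyclin D kinase, was far less abundant. The timepoints gave 7.97, 10.1, 11.9, 9.37, 12.9, 13.6 and 10.5 FPKM, a 1.71-fold range, and Cdk4 was between 31.4 and 61.8 times higher. In re-seeded cells –dox it was at 15.1, 12.0, 23.4 and 5.39 FPKM for 0, 24, 48 and 96 h, so that its highest and lowest values of all 15 conditions were both among these. With dox the values were 15.98, 11.4, 14.4 and 12.0 FPKM. Cdk6 shares 368 bases of exon with Gm17590 on the opposite strand.

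Cdkn1b (chr6:134920401-134925513, plus strand), which encodes p27, was low while Ccne1 was high. Its levels over the 7 timepoints were 24.5, 13.3, 13.2, 15.8, 20.8, 24.8 and 38.2 FPKM. The drop from 0 to 24 h was 1.84-fold, short of the rule, and the rise from 36 to 96 h was 2.89-fold. In re-seeded cells from 0, 24, 48 and 96 h it was at 22.6, 16.4, 31.6 and 49.3 FPKM –dox and at 21.9, 17.6, 30.2 and 53.1 FPKM +dox, so that dox made a difference of less than 1.08-fold at each time.

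The summed E-type cyclins per unit of Cdkn1b gave ratios of 1.93, 11.5, 15.6, 10.7, 5.73, 3.65 and 1.63 in order of time. The lowest value of this ratio, 0.883, was in cells re-seeded from 96 h +dox. Over the 15 conditions the log2(FPKM + 1) values of Ccne1 and Cdkn1b had a Pearson r of -0.90, the most negative among the pairs of the 10 genes. The points are not independent, since the timepoints are 1 series and each –dox and +dox pair came from the same starting cells, so r is a description. The 0 h condition lay apart from the others, with Ccne1 at 38.2 FPKM beside Cdkn1b at 24.5 FPKM. Cdkn1b also ran against Cdk4 (r of -0.82) and Ccnd1 (r of -0.74).

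**Figure D3:**
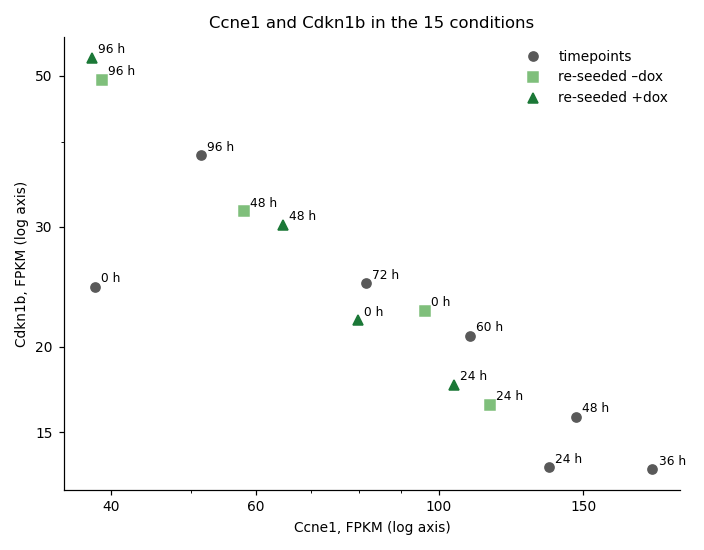
Ccne1 against Cdkn1b in the 15 conditions, FPKM on log axes, labelled with hours of withdrawal; circles are timepoints, squares re-seeded –dox and triangles re-seeded +dox, 1 combined value each. The conditions run from high Ccne1 and low Cdkn1b at 24 to 48 h to low Ccne1 and high Cdkn1b in cells re-seeded from 96 h, with the 0 h point below that band.

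Cdkn2a (chr4:89274471-89294653, minus strand) fell over the time course. From 0 to 96 h its levels were 54.5, 24.8, 24.1, 24.9, 18.1, 11.5 and 11.3 FPKM, so that the last was 4.84-fold below the first. The steps were a 2.19-fold fall in the first day, near-level values from 24 to 48 h and a fall to 72 h. Re-seeded cells from 0, 24, 48 and 96 h held 29.3, 12.8, 16.5 and 28.0 FPKM –dox and 38.5, 16.01, 8.47 and 12.7 FPKM +dox. The 0 h cells with the highest Cdkn2a also had the highest fibroblast markers, of which Col1a1 was at 229 FPKM there and 21.0 FPKM after 24 h. In cells re-seeded from 0 h –dox, Col1a1 was at 1.45 FPKM, 13 of the 20 markers were under 1 FPKM and Cdkn2a was at 29.3 FPKM, and from 24 to 48 h the marker sum ranged from 59.1 to 138 FPKM at near-level Cdkn2a. Beyond these values the part of the fibroblast markers in the Cdkn2a levels was not tested.

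**Figure D4:**
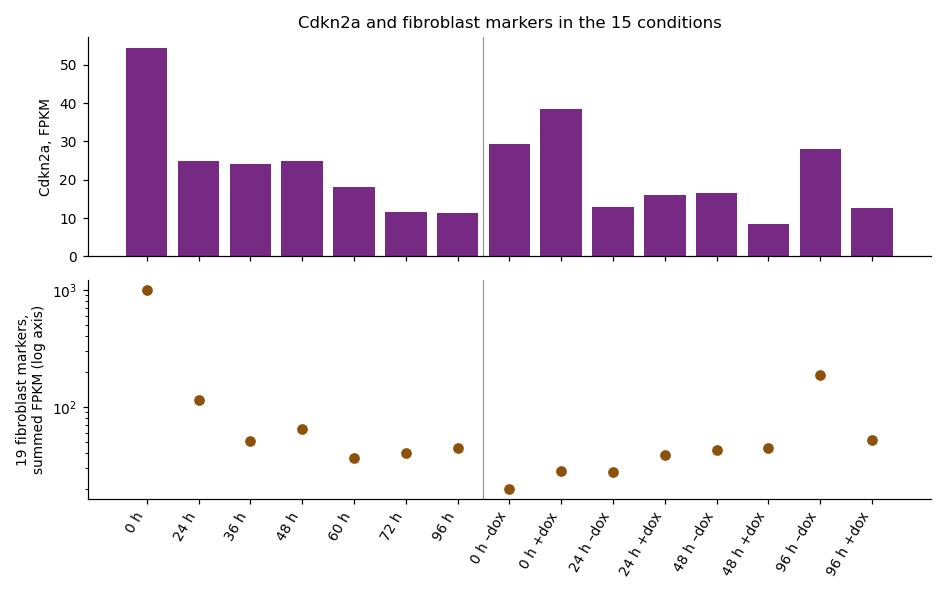
Upper panel, Cdkn2a FPKM in the 15 conditions from a baseline of 0; lower panel, the sum of 19 fibroblast markers (the list without Acta2) in the same conditions on a log axis, 1 combined value each. Both were highest at 0 h, at 54.5 and 997 FPKM, and in cells re-seeded from 0 h Cdkn2a stood at 29.3 and 38.5 FPKM while the markers summed to 19.7 and 28.5 FPKM.

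The value of Cdkn2a adds the transcripts of 2 start sites. The annotation holds 2 coding transcripts, which start at 89282192 and, upstream on the minus strand, at 89294653. As background, the upstream first exon belongs to p19Arf and the downstream one to p16Ink4a, and both use the same later exons, so the gene value does not say which product's transcript fell. The promoters of both starts are shown because they differ, together with those of Ccne1 and Cdkn1b, the pair with opposite courses. Each runs from 250 bases before to 50 bases after a RefSeq start (GRCm38.p6) in the direction of transcription, with capitals marking matches to a GC box word (GGGCGG on either strand) or to one of the E2F words TTTCCCGC, TTTGGCGC, TTTCGCGC and TTTGCCGC on either strand.
Cdkn2a, upstream start, chr4:89294570-89294869, minus strand: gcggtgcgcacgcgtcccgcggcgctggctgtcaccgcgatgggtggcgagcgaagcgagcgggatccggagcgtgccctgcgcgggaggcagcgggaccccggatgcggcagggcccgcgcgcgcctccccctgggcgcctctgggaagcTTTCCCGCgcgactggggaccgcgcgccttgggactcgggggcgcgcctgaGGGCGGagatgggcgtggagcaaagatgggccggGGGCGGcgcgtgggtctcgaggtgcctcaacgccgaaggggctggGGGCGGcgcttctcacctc
Cdkn2a, downstream start, chr4:89282143-89282442, minus strand: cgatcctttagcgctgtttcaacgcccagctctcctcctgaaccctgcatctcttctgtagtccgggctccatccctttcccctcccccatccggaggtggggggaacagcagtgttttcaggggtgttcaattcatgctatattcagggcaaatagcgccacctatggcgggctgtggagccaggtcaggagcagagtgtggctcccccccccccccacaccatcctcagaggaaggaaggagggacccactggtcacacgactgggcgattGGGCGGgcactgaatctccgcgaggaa
Ccne1, chr7:38107441-38107740, minus strand: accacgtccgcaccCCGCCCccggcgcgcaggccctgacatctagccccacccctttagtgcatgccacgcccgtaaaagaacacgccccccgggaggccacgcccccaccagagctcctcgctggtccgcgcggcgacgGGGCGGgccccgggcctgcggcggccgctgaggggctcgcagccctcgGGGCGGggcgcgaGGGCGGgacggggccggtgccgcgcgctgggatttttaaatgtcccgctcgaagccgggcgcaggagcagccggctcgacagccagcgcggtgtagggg
Cdkn1b, chr6:134920151-134920450, plus strand: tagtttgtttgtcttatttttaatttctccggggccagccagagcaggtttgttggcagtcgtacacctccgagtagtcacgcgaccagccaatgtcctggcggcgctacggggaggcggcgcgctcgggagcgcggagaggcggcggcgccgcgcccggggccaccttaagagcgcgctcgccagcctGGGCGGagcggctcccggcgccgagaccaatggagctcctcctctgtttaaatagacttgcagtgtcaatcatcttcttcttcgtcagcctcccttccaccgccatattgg

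The upstream Cdkn2a promoter was 77.0% G or C with 45 CpG sites, and it held 3 GC boxes and the only E2F match among the 8 promoters found for 6 of the 10 genes, with its first base at position -99 from the start. The downstream promoter was 60.3% G or C with 12 CpG sites and 1 GC box. The Ccne1 promoter was 76.0% G or C with 41 CpG sites and 4 GC boxes, and that of Cdkn1b 62.0% with 30 CpG sites and 1 GC box. Among 32851 mouse promoters of the same length, 2.26% held one of the E2F words and 35.7% a GC box, the median G or C content was 52.7% and the median number of CpG sites was 7. A match is a match of letters, and the lack of one says only that these letters are not in this window.

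Rb1 (chr14:73183673-73325822, minus strand), whose protein holds E2F factors in check, was higher at each timepoint than at the one before. It went through 4.40, 10.4, 11.8, 11.9, 14.9, 17.2 and 21.7 FPKM, a 4.93-fold rise. Of this, 2.36-fold came in the first day. Re-seeded cells from 0, 24, 48 and 96 h were at 6.09, 8.07, 22.2 and 24.4 FPKM –dox and 5.77, 9.82, 17.3 and 21.7 FPKM +dox. Rb1 shares exon sequence with 2 genes on the opposite strand, 488 bases with Rcbtb2 and 408 bases with Lpar6. Between 0 and 96 h Rcbtb2 went from 7.64 to 39.8 FPKM and Lpar6 from 2.11 to 9.24 FPKM, and the share of reads that either gave to the Rb1 value was not tested. In cells re-seeded from 24 h –dox, Rcbtb2 was at 32.6 FPKM beside Rb1 at 8.07 FPKM.

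Dox was compared with no dox in cells re-seeded after the same time of withdrawal. From 0 h, 0 of the 9 genes that reached 1 FPKM in either condition changed (9.23% of all genes tested did). From 24 h, 1 of 9 changed (6.27% of all genes tested), and from 48 h 1 of 9 (13.0%). From 96 h, 4 of 10 changed, beside 17.7% of all genes tested. Ccnd2 was the gene under 1 FPKM at 0, 24 and 48 h. The median log2 ratios of all 10 members, with Ccnd2 included, were -0.03, -0.09, -0.16 and 0.03 for cells from 0, 24, 48 and 96 h. Those of all genes tested, which leave out genes under 1 FPKM in both conditions, were 0.05, 0.02, -0.02 and -0.01.

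The gene that changed at 24 and 48 h was Ccne2. Its level was 13.4 FPKM –dox and 6.43 FPKM +dox from 24 h, a 2.09-fold fall, and 10.7 and 5.29 FPKM from 48 h, a 2.03-fold fall. Both calls were lost with 1 FPKM added, at log2 ratios of -0.96 and -0.90. From 96 h it was at 18.0 FPKM –dox and 9.07 FPKM +dox, which at 1.99-fold lay just under the rule, and from 0 h at 3.37 and 3.43 FPKM. Ccne1, the other E-type cyclin, was within 1.21-fold of its –dox value at all 4 times. The neighbouring gene Ints8, which shares exon sequence with Ccne2, was at 41.4 and 27.4 FPKM in cells from 24 h, at 45.2 and 36.2 FPKM from 48 h and at 34.8 and 37.0 FPKM from 96 h.

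In cells from 96 h, Ccnd1, Ccnd2 and Cdk6 were higher with dox. Ccnd1 was at 3.71 FPKM –dox and 19.3 FPKM +dox, a log2 ratio of 2.38 or 5.19-fold. Ccnd2 went from 4.22 to 19.4 FPKM, or 4.59-fold. Cdk6 went from 5.39 to 12.0 FPKM, or 2.23-fold, beside 10.5 FPKM at the 96 h timepoint. With values scaled to a common sum (TPM) the log2 ratio of Cdk6 was 0.98 in place of 1.16 and no longer met the rule, while that of Ccne2 went from -0.99 to -1.17 and met it. Ccnd3, at 66.1 and 109 FPKM, was 1.65-fold higher and did not reach the rule. The sum of the D-type cyclins was 74.0 FPKM –dox and 147.6 FPKM +dox.

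Cdkn2a was lower with dox in cells from 96 h, at 28.0 FPKM –dox and 12.7 FPKM +dox, a 2.21-fold difference. From 48 h it was at 16.5 and 8.47 FPKM, which at 1.94-fold missed the rule, whereas from 0 and 24 h the +dox value was the higher, at 1.32 and 1.25 times the –dox value. In cells from 96 h the fibroblast marker list was lower with dox too. It summed to 440 FPKM –dox and 245 FPKM +dox, or to 185 and 51.9 FPKM without Acta2, and 12 and 10 of the 20 markers reached 1 FPKM. By the 2-fold rule 9 of the 15 markers tested were lower with dox and 2 were higher (11.1% and 6.67% of all genes tested). Among the lower, Col1a2 was at 86.0 and 13.2 FPKM and Pdgfrb at 7.37 and 0.755 FPKM, and the higher ones were Dcn, at 0.791 and 3.64 FPKM, and S100a4, at 0.989 and 2.07 FPKM. Lum was at 0.0605 and 0.113 FPKM against 14.8 FPKM in the 0 h cells. From 48 h, the list summed to 179 FPKM –dox and 104 FPKM +dox, and the 19 markers without Acta2 to 42.5 and 44.2 FPKM. Of the 12 markers tested there, 6 were lower with dox and 2 were higher (6.46% and 6.56% of all genes tested). The part of these markers in the Cdkn2a differences from 48 and 96 h was not tested.

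**Figure D5:**
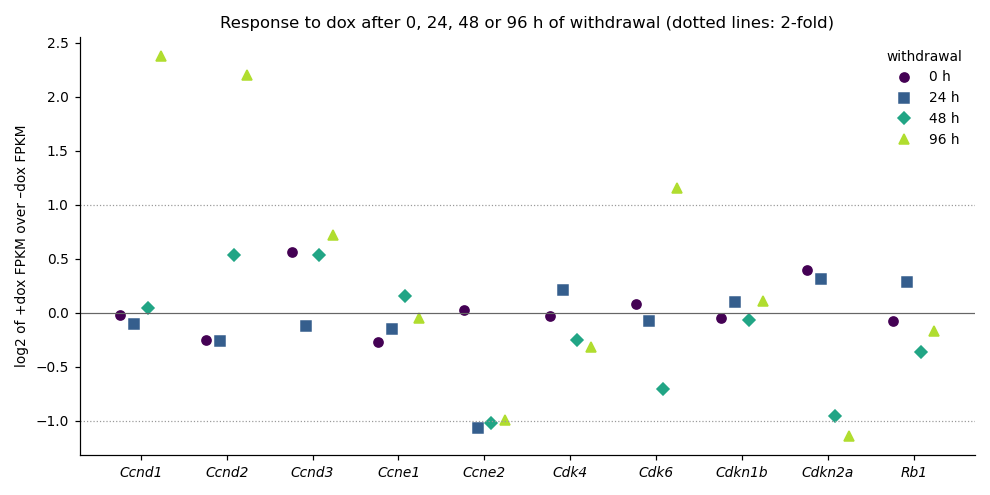
The log2 ratio of +dox to –dox FPKM of each gene in cells re-seeded after 0, 24, 48 or 96 h of withdrawal (circle, square, diamond, triangle), 1 ratio of combined values each; dotted lines mark 2-fold. Ccnd1, Ccnd2 and Cdk6 lie above the upper line at 96 h, Ccne2 lies at or near the lower line at 24, 48 and 96 h, and Cdkn2a lies below it at 96 h.

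Re-seeding without dox was compared with the timepoint at which cells were taken. These conditions differ in medium, in 48 h of further culture and in plating, which cannot be told apart, and the –dox values are the same ones that enter the dox comparisons. From 0 h, 5 of 10 genes changed (22.1% of all genes tested), from 24 h 2 of 10 (25.5%), from 48 h 4 of 10 (26.8%) and from 96 h 2 of 10 (23.6%). In cells from 0 h, Ccnd3 rose 2.30-fold and Ccne1 2.52-fold. Ccnd1 fell 2.75-fold, Ccne2 2.67-fold and Ccnd2 16.5-fold, from 6.03 to 0.364 FPKM, while the fibroblast marker sum went from 1005 to 22.3 FPKM. The part of those markers in the Ccnd2 fall was not tested. The D-type cyclins thus differed among themselves in direction, and so did the E-type cyclins.

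In cells from 24 h, Ccnd1 fell 2.30-fold and Ccnd2 3.20-fold. In cells from 48 h, Ccne1 fell 2.54-fold, Ccne2 2.01-fold and Ccnd2 2.29-fold, and Cdk6 rose 2.50-fold. With 1 FPKM added, the Ccnd2 calls from 24 and 48 h and the Ccne2 call from 48 h were lost, the latter also with 0.1 FPKM added. Ccnd1, at 1.99-fold lower, and Cdkn1b, at 31.6 against 15.8 FPKM, lay just under the rule. In cells from 96 h, Ccnd1 fell 6.23-fold, from 23.2 to 3.71 FPKM, and Cdkn2a rose 2.49-fold, from 11.3 to 28.0 FPKM. The fibroblast marker sum was 143 FPKM at that timepoint and 440 FPKM after re-seeding, of which Acta2 alone gave 97.9 and 255 FPKM. By the rule 10 of the 15 markers tested were higher and 2 lower (12.4% and 11.2% of all genes tested). The part of these markers in the Cdkn2a rise was not tested. Ccnd2 was lower than its timepoint from 0, 24 and 48 h and at 1.63 times its timepoint from 96 h.

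Other genes of the same step were read from a list of 26 further G1 regulators, of which 17 changed over the time course (65.4%, beside 60.7% of all genes tested). Between 0 and 96 h 2 rose and 3 fell, beside 16.8% and 16.4% of all genes tested. The inhibitor gene Cdkn1a, which encodes p21, a target of p53, fell from 185 to 47.5 FPKM. It was already at 24.9 FPKM after 24 h and was at 26.0 FPKM in cells re-seeded from 0 h –dox, while the fibroblast marker sum went from 1005 to 138 and to 22.3 FPKM, whose part in the fall was not tested. Cdkn2b, which encodes p15 and lies beside Cdkn2a, fell from 8.18 to 2.13 FPKM. E2f7, a repressor of the E2F family, rose from 4.43 to 11.3 FPKM. After dox, 2 of 26, 1 of 25, 0 of 24 and 4 of 26 genes tested changed in cells from 0, 24, 48 and 96 h, or 7.69%, 4%, 0% and 15.4%, which lay below the shares of all genes tested (9.23%, 6.27%, 13.0% and 17.7%).

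The largest of these differences was that of Cdkn1c, which encodes p57, a relative of p27. It was at 4.55 FPKM at the 96 h timepoint, 128 FPKM in cells re-seeded from 96 h –dox and 13.1 FPKM +dox, so that it was 9.74-fold lower with dox. In the same 3 conditions the fibroblast markers without Acta2 summed to 44.8, 185 and 51.9 FPKM. The list of formative and germ layer markers holds 15 genes. On re-seeding from 96 h –dox, 4 of the 12 tested were higher and 5 lower (12.4% and 11.2% of all genes tested). With dox, 1 of 11 tested was higher and 3 were lower (6.67% and 11.1% of all genes tested). Hand1 was at 0.590, 38.2 and 1.76 FPKM in the 3 conditions, and Fgf5 at 12.7, 0.346 and 0.488 FPKM. The part of either list in the Cdkn1c difference was not tested. In the same cells E2f8, another repressor, was at 19.3 FPKM –dox and 7.17 FPKM +dox. Cdkn1a went the other way, at 55.3 FPKM –dox and 139.5 FPKM +dox, or 2.52-fold higher. It was also higher with dox in cells from 0 h, at 26.0 and 66.4 FPKM. Cdkn2b was at 11.9 and 5.76 FPKM, or 2.06-fold lower with dox. The 7 inhibitor genes come from the members and from the list of 26 G1 regulators, and were grouped after some of their values were seen. In cells from 96 h, 3 of them (Cdkn1c, Cdkn2a and Cdkn2b) were lower with dox, beside 11.1% of all genes tested. Cdkn1a was higher, beside 6.67% of all genes tested. The other 3 did not meet the rule, namely Cdkn1b, Cdkn2c (1.83 and 1.36 FPKM) and Cdkn2d (17.7 and 19.7 FPKM). The count is a description of a small group.

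A further list held 34 genes of DNA replication and E2F targets. Of these, 11 changed over the time course (32.4%, beside 60.7% of all genes tested), and the median log2 ratio of 96 h to 0 h was -0.33, beside -0.02 for all genes. By the 2-fold rule, between 0 and 96 h 3 of 34 fell and 0 rose, beside 16.4% and 16.8% of all genes tested. The 3 were Orc1, Tk1 and Pola1, genes that act in origin licensing, thymidine salvage and primer synthesis. The median level of the list was 72.3 FPKM before withdrawal, 94.6 FPKM after 36 h, the peak of the E-type cyclins, and 52.7 FPKM after 96 h. It was 46.9 and 45.9 FPKM in cells re-seeded from 96 h –dox and +dox. There 1 of 34 changed with dox, beside 17.7% of all genes tested. This was Tyms, the thymidylate synthase gene, at 52.4 and 24.1 FPKM.

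Of 25 genes of G2 and mitosis, 3 changed over the time course (12.0%, beside 60.7% of all genes tested). Between 0 and 96 h 1 rose and 0 fell, beside 16.8% and 16.4% of all genes tested. The 1 that rose was Mki67, a marker of cycling cells, from 23.5 to 54.3 FPKM. In cells from 96 h, 4 of the 25 were higher with dox than without (16%, beside 6.67% of all genes tested) and 0 were lower (beside 11.1%). They were Ube2c (214 and 531 FPKM), Cdc25c (14.02 and 34.7 FPKM), Aurkb (33.2 and 75.4 FPKM) and Cdc20 (119 and 242 FPKM), all of which act in mitosis. The median log2 ratio of the list was 0.67 there, beside -0.01 for all genes, and its median level was 46.9 FPKM –dox and 82.7 FPKM +dox. The –dox cells were themselves below the 96 h timepoint, with a median log2 ratio of -0.60. By the rule 3 of 25 were lower than at the timepoint (12%, beside 11.2% of all genes tested) and 0 were higher (beside 12.4%). At the timepoint Ube2c, Cdc25c, Aurkb and Cdc20 were at 362, 27.5, 67.6 and 245 FPKM.

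The genes whose course was most like that of each member were found over the 15 conditions among 9068 genes that reached 10 FPKM, by Pearson's r of log2(FPKM + 1). Cdk4 was left out because its values spanned less than 2-fold. The closest were Pja2, Dynlt3 and Furin for Cdkn1b (r of 0.98, 0.98 and 0.97), Utp18 for Ccnd1 (0.97), Wipi2 and Prr19 for Ccne1 (both 0.96) and Tatdn2 for Ccne2 (0.95). Furin, which encodes a proprotein convertase, was at 9.91, 2.80 and 18.4 FPKM after 0, 24 and 96 h. Prr19 was at 0.948, 13.8 and 1.27 FPKM after 0, 36 and 96 h. Rb1 was closest to Ank2 (0.94), to Sox11 (0.93), a transcription factor of the early nervous system, which went from 0.566 to 19.2 FPKM between 0 and 96 h, and to Lats2 (0.93), a kinase of the Hippo pathway. Ggct, the second closest to Ccnd1 (0.94), was at 5.58 FPKM in cells re-seeded from 96 h –dox and 32.5 FPKM +dox, the pair of conditions in which Ccnd1 was at 3.71 and 19.3 FPKM. Ccnd2 was closest to Snx18 (0.91), Cdkn2a to Cdk2ap2 (0.89) and Cdk6 to Palm3 (0.88). The r values share the conditions and their scaling and carry no p.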

How the data were processed

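RNA-seq of 30 samples in 15 conditions was read from 1 table of 22477 genes. According to the methods and the submitters' processing notes, the authors mapped reads to mm10 with TopHat 2.0.14, used Cufflinks 2.2.1 to quantify Gencode transcripts (6 biotypes, 200 bp or longer) and combined 2 replicates per condition with Cuffdiff. The deposited values are FPKM, called RPKM in the table's title. Its 5 columns of the authors' calls (groups of dynamic genes and responses to dox) were not used. Library normalization and strand of counting are not given in the sources used here.

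The values were used without further scaling in Python 3.11.15, numpy 2.4.6, pandas 2.3.3 and matplotlib 3.10.9. Change was called at a plain ratio of at least 2 with the higher value at 1 FPKM or more. The steps were tested on simulated data. Without counts the depth is unknown. The step between low values, per FPKM of a 1 kb transcript, gave 14.8 to 23.7 steps in most conditions and 43.1 to 50.0 in those re-seeded from 0 and 24 h. Counted as for a 1 kb transcript, Ccnd2 in cells re-seeded from 48 h –dox stood on the fewest, 8.69. The longest Ccnd2 transcript has 6330 bases, so 8.69 is not its own number of steps.

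The 10 genes and all lists were chosen with earlier results of these data known. Named genes are all members, the 3 genes most like each in course, and of each list counts and the 3 largest changes that reached 5 FPKM. Cdc20, Cdkn2b after dox, Cdkn2c, Cdkn2d, the markers and genes that overlap a member were named after their values were seen. Positions and overlaps come from Gencode M21, which holds 94.9% of the symbols.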

Additional observations from a re-analysis of the deposited data

How the results depend on the processing

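No paired analysis was possible because the table has 1 combined value per condition, and for the same reason no replicate could be left out. The counts of changed genes were recomputed with a minimum of 5 FPKM or none, a 1.5-fold or 3-fold rule, 0.1 or 1 FPKM added, median-ratio factors, and values scaled to 1 common sum (TPM). At 3-fold, 5 genes changed over the time course, 0, 0 and 2 after dox from 24, 48 and 96 h, and 1, 1, 0 and 1 on re-seeding from 0, 24, 48 and 96 h. The 3-fold counts stand without the shares of all genes tested, so they show only how the calls depend on the threshold. At 1.5-fold, 5 changed between 0 and 96 h (50.6% of all genes tested) and 3 after dox from 48 h (27.1%). On re-seeding from 48 and 96 h, 8 and 5 changed at 1.5-fold, beside 46.8% and 43.5% of all genes tested. With 1 FPKM added, 0 changed after dox from 24 h (2.34% of all genes tested) and 0 from 48 h (6.89%). On re-seeding from 24 and 48 h, 1 and 2 changed with 1 FPKM added (16.9% and 18.9%). With a minimum of 5 FPKM, 1 changed on re-seeding from 24 h (17.8% of all genes tested). As TPM, 2 changed after dox from 48 h (Ccne2 and Cdkn2a), and the 4 from 96 h held Ccne2 in place of Cdk6. The shares of all genes tested were 13.8% and 19.9% there. Ccnd2 no longer changed between 0 and 96 h as TPM (36.7% of all genes tested). Cdk6 was added over the time course (65.1%) and on re-seeding from 0 and 96 h (25.7% and 25.5%). Ccnd1 was added on re-seeding from 48 h (27.9%). The D-type cyclin sum at 96 h was 133.1 as TPM. As this scaling multiplied values by 1.53 at 96 h and by 1.27 at 0 h, it cannot be set against the sums in FPKM. TPM moved the median log2 ratio of all genes by 0.27 for 96 h to 0 h, by -0.23, -0.11, -0.09 and -0.18 for dox from 0, 24, 48 and 96 h, and by 0.24 and 0.15 for re-seeding from 0 and 24 h. It turned the sign of 6 of 50 member ratios, none of them past 0.27 on the log2 scale as deposited. The moves follow from the scaling itself, since the summed FPKM at 96 h had a log2 ratio of -0.27 to that at 0 h. Why the sums differ was not tested. Of the 27 most similar genes, 7 were found again with Spearman's rho and 8 on the FPKM scale.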
